A study of Mus musculus with 6 samples.

Results

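Mediator is a large protein complex that carries signals from DNA-bound transcription factors to RNA polymerase II. Its head and middle modules contact the polymerase, its tail receives most activators, and MED14 is the backbone that joins the 3 of them. A separable kinase module, made of cyclin C, CDK8 or its paralog CDK19, MED12 or MED12L, and MED13 or MED13L, docks on this core and hinders its contact with the polymerase, while its kinase also phosphorylates transcription factors. The genes described here are the 33 rows, of 18057 in the deposited table, whose symbol is Med followed by a digit, or Cdk8, Cdk19 or Ccnc. They were picked by symbol, as a group proposed with earlier results of these data known, and so were the lists of partner and initiation genes below. By module they comprised 7 genes of the head, 9 of the middle, the backbone gene, 9 of the tail and 7 of the kinase module. The placement of Med27 to Med30 between head and tail, and of Med19 between head and middle, varies among published descriptions.

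RNA was sequenced from 4T1, a mouse breast cancer cell line, in 2 groups of 3 libraries. One group received DMSO, the vehicle, and the other BRQ, and the series title speaks of a DHODH inhibitor, that is, of a block in pyrimidine synthesis. The letters DHO stand in the title of every sample, unexplained, and neither dose nor time is stated in the labels used here. Nothing in the labels says that replicates were separate cultures, so p-values measure the spread between these libraries, which may be technical.

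Expression is given as FPKM, fragments per kilobase of gene model, scaled to library depth, as the authors computed it. Depth, recovered from the steps between FPKM values, was 31176700 to 34326038 reads per library. All 10 epithelial marker genes examined were above 1 FPKM on average, with a summed level of 2017 to 2068 FPKM under DMSO and 1544 to 1589 under BRQ. Krt8, Krt18, Krt7, Krt19, Esrp1 and Cdh1 were lower in all 3 BRQ libraries, while Epcam, Cldn3, Cldn4 and Ovol1 were higher. The abundant keratins weigh most in the sum, with Krt8 alone at 609 FPKM under DMSO and 404 under BRQ on average. Markers of endothelium and T cells summed to under 1 FPKM in every library. A list of 11 hepatocyte markers, of which 5 averaged at least 1 FPKM and none stood at 0 throughout, summed to 33.9 to 38.8 FPKM under DMSO and to 27.3, 13.1 and 11.4 FPKM in BRQ replicates 1, 2 and 3. The largest part was Fah, at 19.6 FPKM under DMSO and 12.1 under BRQ on average. Alb read 6.62 to 10.2 FPKM under DMSO and 7.23, 0.0875 and 0 FPKM in BRQ replicates 1, 2 and 3. Ttr, Fga, Apoc3, Tat and Cps1 were above 0 in BRQ replicate 1 and at 0 in BRQ replicates 2 and 3. For 10 macrophage markers, of which 4 averaged at least 1 FPKM and none stood at 0 throughout, the sums were 32.6 to 36.9 FPKM under DMSO and 67.9, 120.2 and 113 FPKM under BRQ. Of these 4, Cd68 and Cd14 were higher in all 3 BRQ libraries. Lyz2 read 4.44 to 5.38 FPKM under DMSO and 3.56, 35.4 and 36.4 FPKM in BRQ replicates 1, 2 and 3. Tyrobp read 0 to 0.725 FPKM under DMSO and 0.66, 6.06 and 6.54 FPKM in these BRQ replicates. Summed over 6 fibroblast markers, of which Pdgfra alone averaged at least 1 FPKM and none stood at 0 throughout, levels were 4.86 to 5.1 FPKM under DMSO and 8.02 to 8.9 under BRQ. BRQ replicates 2 and 3 stood apart from BRQ replicate 1 in hepatocyte and macrophage transcripts, and the part of these marker levels in the results was not tested. When BRQ replicates 2 and 3 were left out, every tested Mediator gene kept its direction.

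In cells given BRQ, transcripts of most head, middle and tail subunits of Mediator were higher and those of most kinase module genes were lower. Of the 33 genes, 32 had a mean of at least 1 FPKM and were tested with limma on log2(FPKM + 1), with Benjamini-Hochberg adjustment over all 10552 tested genes. Calls at an adjusted p under 0.05 numbered 30, with 20 genes higher and 10 lower, against 82.4% of all tested genes called, 48.7% higher and 33.7% lower. So being called was common in this comparison, and the share of members called lower lay near that of all genes. The 3 BRQ values did not overlap the 3 DMSO values for 29 of the 32, against 83.7% of all tested genes. The median log2 fold change of the members was 0.33, beside 0.12 for all tested genes. In bulk RNA, fewer cells that hold a transcript and less of it per cell cannot be told apart.

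**Figure D1:**
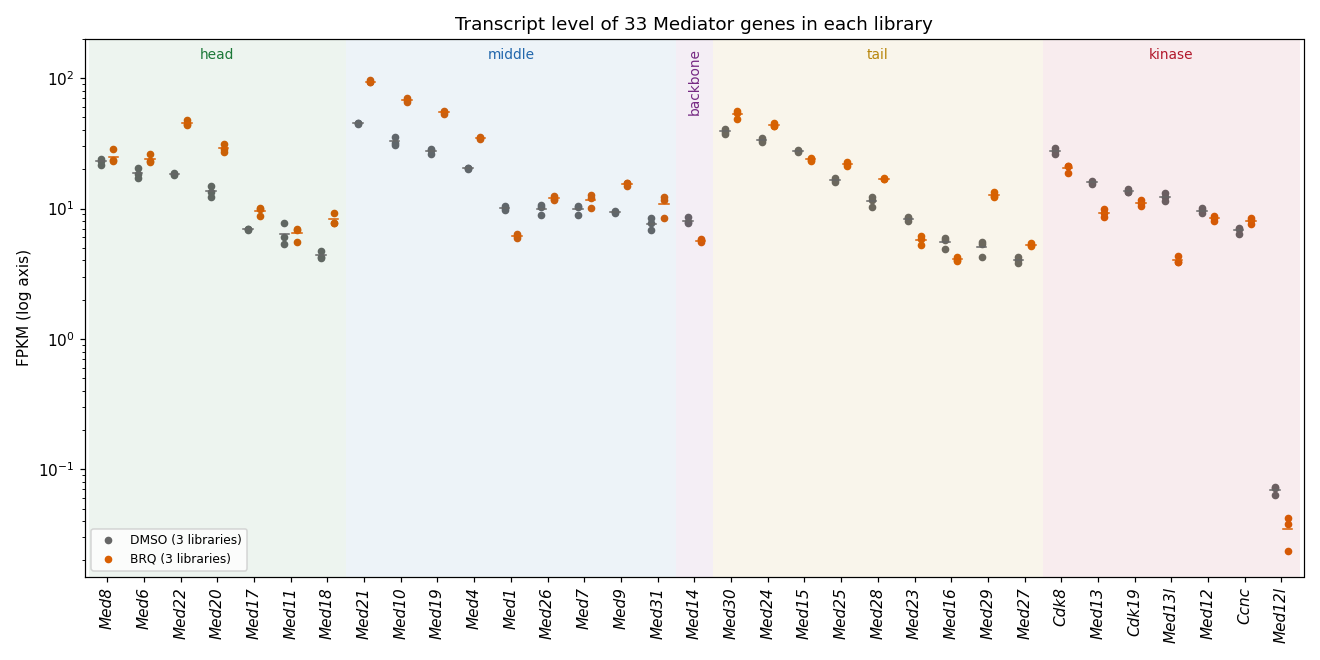
FPKM on a log axis of the 33 Mediator genes, grouped by module and ordered within it by DMSO level, with 1 point per library and a short line at each group's mean (3 DMSO libraries in grey, 3 BRQ libraries in orange). Orange points lie above the grey ones for most head and middle genes and below them for Med1, Med14 and most kinase module genes, and Med12l lies far under all the others.

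Counts differed by module. The head had 5 of 7 genes higher, none lower and 2 not called, with a median log2 fold change of 0.41. The middle had 8 of 9 higher and 1, Med1, lower, with a median of 0.65. Median genomic span was 6.54 kb for head genes and 9.81 kb for middle genes. Of all tested genes spanning up to 9.93 kb, 70.6% were called higher and 14.5% lower, with a median of 0.47. Of the 9 tail genes 6 were higher and 3 lower, with a median of 0.37. In the kinase module 1 of 6 tested genes was higher and 5 were lower, with a median of -0.36. All tested genes with a span above 50.6 kb had a median of -0.31, and 65.2% of them were called lower. Med12 (24.8 kb) and Ccnc (32.2 kb) are shorter than that. All tested genes spanning 22.5 to 50.6 kb had a median of 0.05, and 35.4% were called lower. Taken as the core, head, middle, backbone and tail had 19 of 26 genes higher and 5 lower. That is 73.1% and 19.2%, against 48.7% and 33.7% of all tested genes. Median span was 18.0 kb for tail genes and 14.0 kb for the core. Of all tested genes spanning 9.93 to 22.5 kb, 62.9% were called higher and 19.6% lower, with a median of 0.32. Differences between modules were not tested, since subunits are not replicates of a condition.

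**Figure D2:**
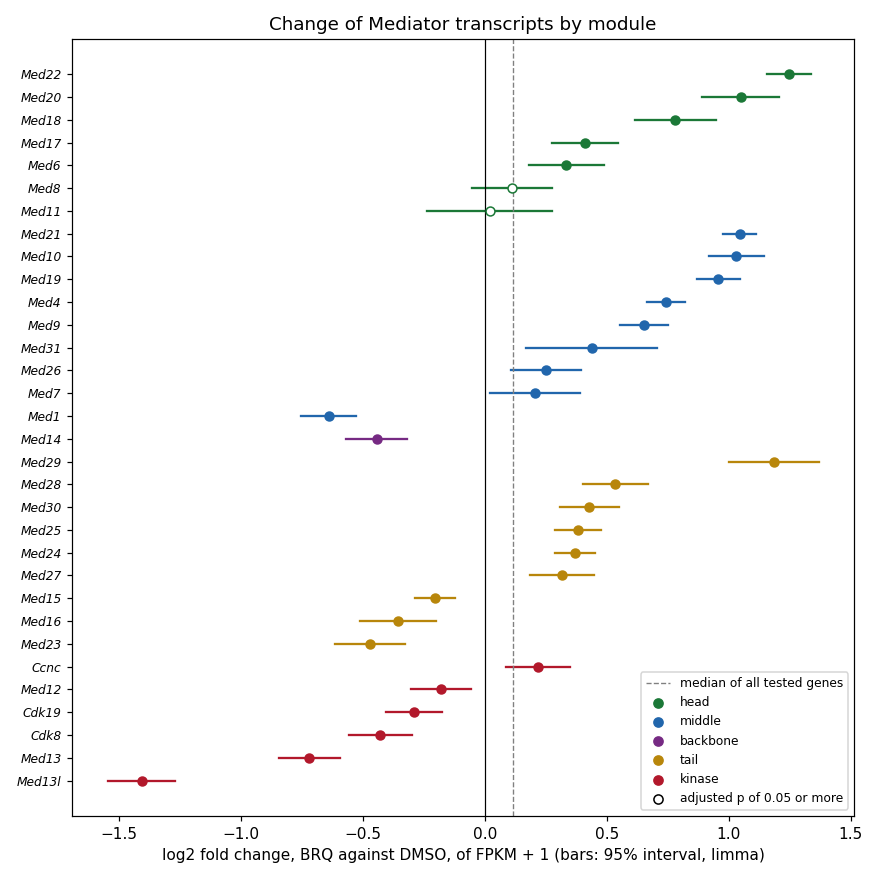
Log2 fold change of FPKM + 1, BRQ against DMSO, of the 32 tested Mediator genes by module, with 95% intervals from limma over 3 libraries per group, and open points for genes with an adjusted p of 0.05 or more. Head genes run from Med11 at 0.02 to Med22 at 1.25, and kinase module genes from Med13l at -1.41 to Ccnc at 0.22. The dashed line marks the median of all tested genes, 0.12.

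Promoters of 4 strongly changed members are shown to compare their letters. They are the 250 bases before the annotated start, from RefSeq on GRCm38.p6, written 5′ to 3′ on the gene's strand, with CCAAT (or its reverse complement ATTGG) and CCGGAAG, the core of many ETS factor sites, in capitals. Med19, Med21 and Med22 were among the largest rises and Med13l was the largest fall. Med29 (log2 fold change 1.18), Med20 (1.05) and Med10 (1.03) rose more than Med19 (0.96) and are not shown.
Med19, chr2:84678152-84678401, plus strand: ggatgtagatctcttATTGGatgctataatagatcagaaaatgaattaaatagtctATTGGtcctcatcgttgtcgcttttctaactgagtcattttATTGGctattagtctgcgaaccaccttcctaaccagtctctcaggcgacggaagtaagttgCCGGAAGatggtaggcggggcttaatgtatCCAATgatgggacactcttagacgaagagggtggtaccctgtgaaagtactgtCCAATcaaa
Med21, chr6:146642329-146642578, plus strand: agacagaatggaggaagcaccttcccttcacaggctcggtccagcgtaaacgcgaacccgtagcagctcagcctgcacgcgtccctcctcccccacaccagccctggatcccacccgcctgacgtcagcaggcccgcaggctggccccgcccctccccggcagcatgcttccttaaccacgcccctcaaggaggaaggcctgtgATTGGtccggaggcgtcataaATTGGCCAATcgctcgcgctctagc
Med22, chr2:26910643-26910892, minus strand: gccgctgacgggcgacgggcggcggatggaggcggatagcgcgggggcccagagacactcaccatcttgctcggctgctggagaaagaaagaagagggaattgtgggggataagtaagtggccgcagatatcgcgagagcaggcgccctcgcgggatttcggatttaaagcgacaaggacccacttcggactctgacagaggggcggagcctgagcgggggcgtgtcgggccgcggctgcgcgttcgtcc
Med13l, chr5:118560469-118560718, plus strand: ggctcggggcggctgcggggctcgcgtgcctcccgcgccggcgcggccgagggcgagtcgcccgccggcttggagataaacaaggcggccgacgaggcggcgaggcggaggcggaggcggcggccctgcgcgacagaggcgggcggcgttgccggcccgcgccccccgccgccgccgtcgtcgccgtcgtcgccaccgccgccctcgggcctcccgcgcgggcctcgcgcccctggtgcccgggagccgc
The Med19 window holds 5 matches to CCAAT and 1 to CCGGAAG, the Med21 window 3 matches to CCAAT, and the windows of Med22 and Med13l neither. Among the larger rises not shown, the Med29 window holds 3 matches to CCAAT, and the windows of Med20 and Med10 hold none. A Med10 window holds 3 matches to CCGGAAG. The G and C content was 42.8% in Med19, 64.8% in Med21, 65.2% in Med22 and 84.0% in Med13l. Its median was 54.4% for members called higher and 66.4% for members called lower, beside 60.4% for tested genes. A promoter was listed for 28 of the 33 members. On either strand, CCAAT lay in at least 1 listed promoter of 11 of these 28, namely in 10 of 18 called higher and in Med1 alone among 8 called lower. The background was 37.5% of 27025 genes with a promoter, 43.2% of tested genes called higher and 38.3% of those called lower. CCGGAAG was found in 6 of the 28, against 7.83% of all genes and 17.2% of tested genes, and GGGCGG, the GC box, in 19 of the 28, against 35.4% and 66.8%. TATAAA was found in 3 members (14.3% and 7.3%), and CACGTG, the E box, in 2 (6.86% and 10.3%). Such matches describe letters only, and none was tested against expression.

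Among head genes, Med22 changed most. Its product pairs with MED11. Med22 stood at 18.8, 18.2 and 18.5 FPKM in DMSO replicates 1, 2 and 3 and at 47.6, 44.4 and 43.8 FPKM in the BRQ replicates. All 3 BRQ libraries were more than 2-fold above all 3 DMSO libraries. The mean ratio was 2.45 (log2 fold change 1.25 with SE 0.0403, adjusted p = 2.83e-09 by limma), and 3.53% of all tested genes rose more. Med11 itself, covered by only 151 to 238 recovered reads per library, measured 6.37 ± 1.2 FPKM under DMSO and 6.44 ± 0.761 under BRQ (SD, n = 3), and its groups overlapped (log2 fold change 0.02, 95% interval -0.23 to 0.28, adjusted p = 0.87).

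Med20 and Med18 encode a pair that in yeast forms the movable jaw of the head. Med20 read 13.3, 12.3 and 14.9 FPKM under DMSO and 28.7, 31.2 and 27.0 FPKM under BRQ, with no overlap. That is a 2.14-fold rise (log2 fold change 1.05 with SE 0.0702, adjusted p = 3e-07 by limma). Med18 rose with it, from 4.37 ± 0.293 to 8.24 ± 0.827 FPKM. Med17, the scaffold of the head, lay at 7.01, 6.85 and 6.98 FPKM under DMSO and at 10.1, 9.91 and 8.71 FPKM under BRQ. It rose 1.38-fold (log2 fold change 0.41, SE 0.0602, adjusted p = 0.000107), with BRQ replicate 3 the lowest of the treated libraries yet above every control. Med6, another head subunit, rose from 18.8 ± 1.63 to 23.9 ± 1.85 FPKM. Med8, which in yeast anchors that jaw, measured 23.0 ± 1.23 and 24.98 ± 2.93 FPKM, and its groups overlapped (adjusted p = 0.182). Under median-ratio, TMM and quantile scaling Med8 and Med11 turned to values between -0.09 and -0.01 that were not called either.

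In the middle module the 3 largest rises were those of Med21, Med10 and Med19. Med21, whose product forms the hinge of the middle with MED7, was the most abundant Mediator transcript per length in every library, at 44.3, 45.3 and 45.6 FPKM under DMSO and 92.9, 96.2 and 92.8 FPKM under BRQ. Replicates of one group lay within a few FPKM of each other and the groups were far apart (2.09-fold, log2 fold change 1.04 with SE 0.0296, adjusted p = 1.32e-09 by limma). Med10, a small conserved subunit, went from 30.8, 32.0 and 35.5 FPKM to 68.3, 69.8 and 65.5 FPKM. Its rise was 2.07-fold (1.03, SE 0.0503, adjusted p = 3.31e-08). Exons of a non-coding gene on the opposite strand, Gm26819, cover 92.8% of the exonic bases of Med10 in GENCODE M21 on GRCm38. The strand setting of the counts is not stated in the labels, nor how much of this overlap the counted gene model holds. Which gene these reads came from is therefore uncertain. Med19 measured 28.0, 26.4 and 28.4 FPKM under DMSO and 55.2, 55.6 and 52.7 FPKM under BRQ, close to a doubling in each library (1.98-fold, 0.96, SE 0.039, adjusted p = 1.1e-08).

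Further middle subunits moved less. Med4 rose from 20.4 ± 0.193 to 34.8 ± 0.631 FPKM and Med9, whose product binds MED4, from 9.44 ± 0.176 to 15.4 ± 0.47 (log2 fold changes 0.74 and 0.65, limma adjusted p = 2.2e-08 and 3.07e-07). Med31, a conserved small subunit, rose from 7.65 ± 0.822 to 10.8 ± 2.04 FPKM, with BRQ replicate 3, at 8.48 FPKM, just above the highest DMSO value of 8.44. Med7 was called higher with overlapping groups (9.87 ± 0.803 to 11.6 ± 1.32 FPKM, log2 fold change 0.21, adjusted p = 0.0388). This call was lost under the 3 other scalings (adjusted p = 0.294 to 0.359), without a filter on low values (0.118) and without DMSO replicate 1 (0.14), BRQ replicate 1 (0.107) or BRQ replicate 2 (0.146). Med26, whose product recruits elongation factors and binds the core in competition with the kinase module, stood at 10.7, 8.98 and 10.2 FPKM under DMSO and 11.9, 11.7 and 12.6 FPKM under BRQ. The groups were close but did not overlap (0.25, SE 0.0638, adjusted p = 0.00427), and the call was lost under the 3 other scalings (0.0644 to 0.0841) and it was 0.23 (0.0654) with BRQ replicate 1 left as the only treated library, assumed to vary like the controls.

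Med1 was the one middle gene that fell. Its product is the docking subunit for nuclear receptors. Levels were 10.1, 10.4 and 9.78 FPKM under DMSO and 6.33, 5.89 and 6.16 FPKM under BRQ. No BRQ library reached any control, and the mean was 1.65-fold lower (log2 fold change -0.64 with SE 0.0507, adjusted p = 1.04e-06 by limma). Med14, the backbone gene, was also lower, at 8.59, 7.94 and 7.71 FPKM under DMSO against 5.69, 5.52 and 5.83 FPKM under BRQ. All 3 treated libraries lay below the controls (1.42-fold lower, -0.44, SE 0.0559, adjusted p = 3.61e-05).

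Tail genes divided. Med29, the counterpart of the fly gene intersex, had the highest fold of mean FPKM of all members, from 4.25, 5.34 and 5.56 FPKM under DMSO to 12.5, 12.3 and 13.3 FPKM under BRQ. Every treated library was more than 2-fold above every control (2.51-fold, log2 fold change 1.18 with SE 0.082, adjusted p = 3.84e-07 by limma). Med28 (11.4 ± 1.01 to 16.9 ± 0.177 FPKM) and Med30 (39.0 ± 1.89 to 52.8 ± 3.78 FPKM) rose with log2 fold changes of 0.54 and 0.43. Med24, Med25 and Med27 rose too, with log2 fold changes between 0.32 and 0.38. Med25 encodes a target of the viral activator VP16.

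Against these, the other 3 tail genes fell. Med23, whose product receives the MAP kinase-activated factor ELK1, read 7.96, 8.42 and 8.55 FPKM under DMSO and 5.85, 5.21 and 6.13 FPKM under BRQ. It was lower in all 3 treated libraries (1.45-fold, log2 fold change -0.47 with SE 0.0634, adjusted p = 5.84e-05 by limma). Med16, which sits beside MED23 and MED24 in the tail, fell from 5.52 ± 0.52 to 4.09 ± 0.138 FPKM (-0.36). Med15, a target of SREBP and SMAD factors, fell from 27.5 ± 0.451 to 23.8 ± 0.664 FPKM (-0.20). The 3 subunits MED16, MED23 and MED24 lie together in the tail, and their transcripts did not move alike: Med24 went from 33.5 ± 1.11 to 43.6 ± 1.2 FPKM.

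Within the kinase module the largest fall was that of Med13l, one of the 2 genes for the subunit that tethers the module to the core. Med13l stood at 13.1, 12.3 and 11.52 FPKM under DMSO and at 3.89, 3.89 and 4.29 FPKM under BRQ. All 3 treated libraries lay far below any control (3.06-fold lower, log2 fold change -1.41 with SE 0.0619, adjusted p = 1.79e-08 by limma), and only 0.597% of tested genes fell more. Its paralog Med13 went from 16.1, 16.4 and 15.3 FPKM to 9.24, 8.67 and 9.96 FPKM. The groups were separate (1.71-fold lower, -0.72, SE 0.0554, adjusted p = 8.55e-07).

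Cdk8, the more abundant of the paralogous kinase genes per length, measured 28.9, 27.8 and 26.1 FPKM under DMSO and 18.6, 21.1 and 21.2 FPKM under BRQ. Its groups did not overlap (1.36-fold lower, log2 fold change -0.43 with SE 0.0578, adjusted p = 5.89e-05 by limma). Cdk19 went from 13.3, 14.2 and 13.5 FPKM to 10.4, 11.05 and 11.6 FPKM. That fall was smaller (1.24-fold, -0.29, SE 0.0513, adjusted p = 0.000426) and again without overlap. Med12, which activates the kinase through cyclin C, read 10.03, 9.7 and 9.23 FPKM under DMSO and 8.44, 7.96 and 8.82 FPKM under BRQ. The fall was the smallest called among members (1.15-fold, -0.18, SE 0.0542, adjusted p = 0.011), and with BRQ replicate 1 left as the only treated library, assumed to vary like the controls, its value was -0.17 (adjusted p = 0.0722).

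Ccnc, the gene of cyclin C, was the one kinase module gene called higher, at 7.04, 6.4 and 6.98 FPKM under DMSO and 8.11, 7.64 and 8.52 FPKM under BRQ. The groups were adjacent without overlap (1.19-fold, log2 fold change 0.22 with SE 0.0585, adjusted p = 0.00561 by limma), and the call was lost under the 3 other scalings (adjusted p = 0.0727 to 0.129). Med12l, the paralog of Med12, was barely present and was not tested, with 0.064, 0.073 and 0.072 FPKM under DMSO and 0.024, 0.038 and 0.042 FPKM under BRQ. These values rest on 24, 25 and 27 recovered reads under DMSO and 9, 14 and 16 under BRQ.

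Summed per length, the modules shifted against each other. Head genes together amounted to 91.4 ± 1.67 FPKM under DMSO and 147 ± 3.29 under BRQ (SD, n = 3), middle genes to 173 ± 4.75 and 307 ± 8.25, and tail genes to 151 ± 0.933 and 187 ± 2.43. Kinase module genes amounted to 86.0 ± 3.05 FPKM under DMSO and 61.1 ± 2.96 under BRQ. Their share of the summed FPKM of all 33 genes, which a common rescaling of a library leaves as it is, was 17.3%, 17.2% and 16.1% in DMSO replicates 1, 2 and 3 and 8.28%, 8.38% and 9.25% in the BRQ replicates. The share in every BRQ library thus lay far below that in any control. Median genomic span was 90.6 kb for kinase module genes and 14.0 kb for core genes, and fold changes of all tested genes fell with span, as described below. The part of span in the share was not tested. FPKM summed over the whole table was also higher under BRQ, at 413739 to 420687 per library against 374509 to 380140 under DMSO, which bears on the module sums. Members also lay further apart from each other in level: the SD of log2 FPKM over the 32 tested members was 0.955 to 0.98 in the DMSO libraries and 1.23 to 1.28 in the BRQ libraries, while over all tested genes it was 1.91 to 1.93 and 1.93 to 1.95. These sums and spreads over chosen genes are descriptions and were not tested.

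Ratios between genes within a library do not depend on its scaling, and 8 of them were compared by an exact two-sided permutation test, which with 3 libraries against 3 cannot give a p under 0.1. The ratio of Med13l to Med13 was 0.818, 0.75 and 0.753 under DMSO and 0.421, 0.449 and 0.43 under BRQ. Every treated library lay below every control (difference of mean log2 ratio -0.84, exact permutation p = 0.1, adjusted over 8 pairs 0.16). The ratio of Cdk19 to Cdk8 was 0.459, 0.51 and 0.517 under DMSO and 0.559, 0.524 and 0.545 under BRQ. It was slightly higher in all treated libraries (0.13, exact permutation p = 0.1, adjusted 0.16). For Med12l to Med12 the difference was -0.84 with the same p, but -0.14 with a pseudocount of 0.1 FPKM, and Med12l lies under that pseudocount in every library.

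The other 5 ratios join subunits that lie side by side in the complex and were chosen after their values were seen. Med22 to Med11 went from 3.09, 3.41 and 2.4 under DMSO to 6.99, 7.98 and 6.33 under BRQ. Med21 to Med7 went from 4.95, 4.36 and 4.44 to 7.72, 7.63 and 9.2. Neither pair overlapped between groups (differences of mean log2 ratio 1.27 and 0.83, exact permutation p = 0.1 each), with all 3 treated libraries above all 3 controls. For Med20 to Med18, Med4 to Med9 and Med30 to Med28 the groups overlapped, with differences of 0.19, 0.06 and -0.14 (exact permutation p = 0.5, 0.2 and 0.6).

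**Figure D3:**
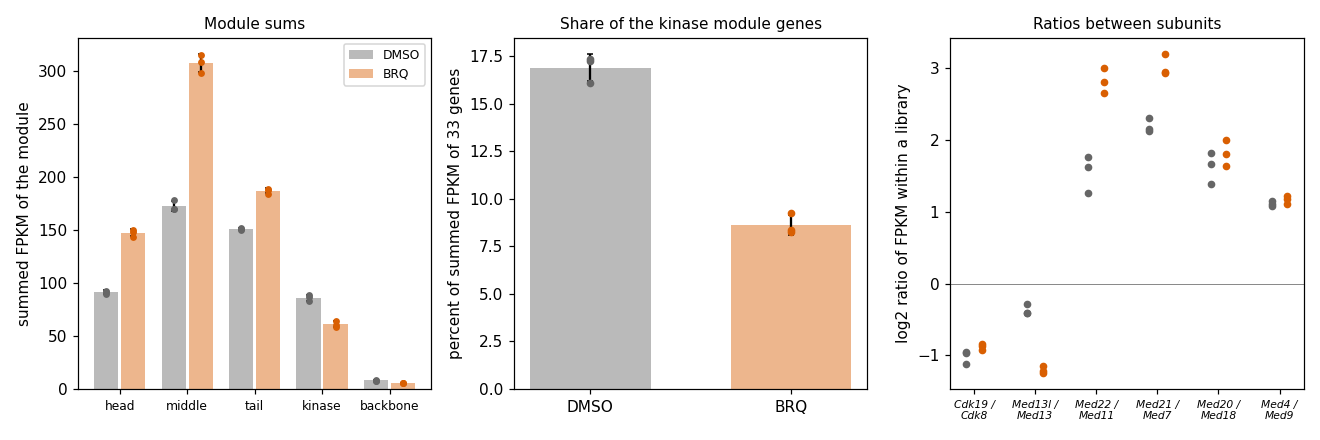
Left, summed FPKM of the genes of each module (bars: mean of 3 libraries, lines: SD, points: libraries), with head, middle and tail higher and kinase module and backbone lower under BRQ. Centre, the share of the kinase module genes in the summed FPKM of all 33 genes, 16.9% under DMSO and 8.64% under BRQ on average. Right, log2 ratios of FPKM within each library for 6 pairs of subunit genes (grey DMSO, orange BRQ), which separate between groups for Med13l to Med13, Med22 to Med11 and Med21 to Med7, narrowly for Cdk19 to Cdk8, and overlap for Med20 to Med18 and Med4 to Med9.

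Fold changes of the members were also set against the genomic span of their genes, taken from RefSeq on GRCm38.p6. Across the 32 tested members the log2 fold change fell with span (Spearman's rho -0.66), and across 10535 tested genes with a known span it did so as well (-0.49). Genes are not independent replicates, and these are descriptions. Without the kinase module, rho over 26 members was -0.50. When tested genes were divided by span into 4 equal bins, then in the shortest bin, up to 9.93 kb, 70.6% of all tested genes were called higher and 14.5% lower, and of the 11 members there 9 were higher, 0 lower and 2 not called. Their median log2 fold change was 0.74, against 0.47 for all genes of that bin. In the longest bin, above 50.6 kb, 17.7% of all tested genes were called higher and 65.2% lower, and of 8 members there 2 were higher and 6 lower. Their median was -0.36, against -0.31 for all genes of that bin.

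After a trend on span, fitted over all tested genes, was taken off, 15 members were called higher and 11 lower. Med13l (-0.89, limma adjusted p = 2.21e-07), Med13 (-0.44, 2.68e-05), Med12 (-0.33, 0.000253) and Cdk8 (-0.22, 0.00472) remained called lower, while Cdk19 moved to 0.10 (0.083) and Med15 to 0.01 (0.865). Med22 (0.79), Med29 (0.76), Med20 (0.70), Med10 (0.70), Med21 (0.63) and Med19 (0.57) remained called higher. Med27 spans 178 kb and rose against the trend (0.79 after its removal, adjusted p = 3.35e-07), and Med16 spans 14.2 kb and fell against it (-0.67, 8.09e-06). Relative to genes of their span, Med11 (-0.50), Med8 (-0.32) and Med7 (-0.24) were called lower. Med31 was at -0.04 (0.752).

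**Figure D4:**
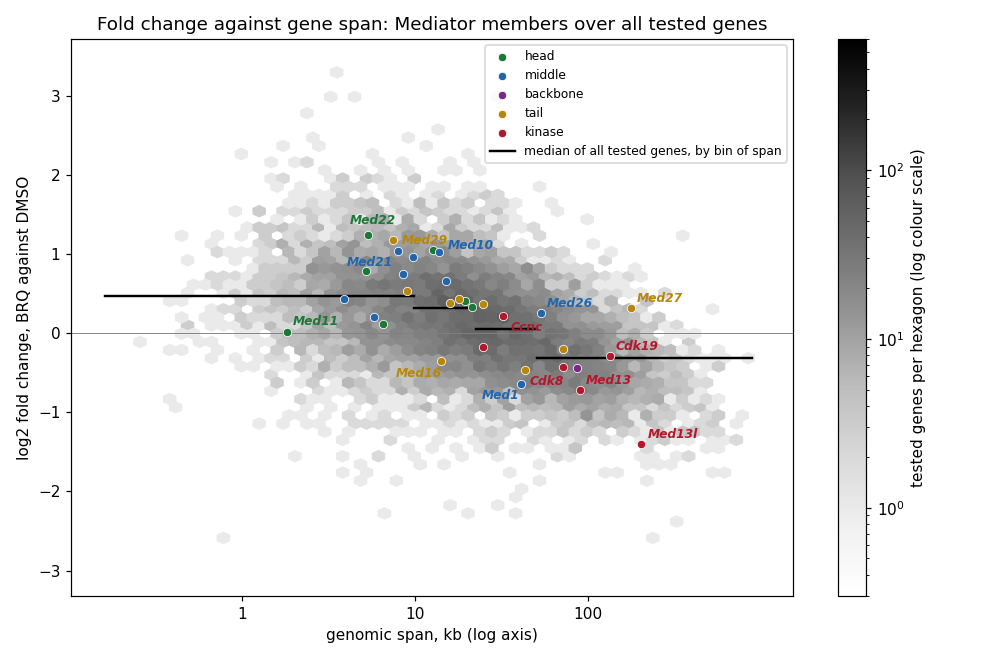
Log2 fold change, BRQ against DMSO, over genomic span in kb on a log axis for all tested genes with a known span (grey hexagons, darker for more genes) and for the 32 tested Mediator genes by module. Black lines give the median of all genes in each of 4 equal bins of span, from 0.47 in the shortest to -0.31 in the longest. Med22, Med29 and Med10 lie above the lines at short span, Med27 above at long span, and Med13l, Med1 and Med16 below.

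Genes whose products work with Mediator at enhancers were counted from a list of 18, of which 16 were tested. Of these, 2 were called higher and 14 lower, with a median log2 fold change of -0.58 beside 0.12 for all tested genes. All tested genes were called lower in 33.7%, and those of the longest span bin, above 50.6 kb, in 65.2%. The median span of the list was 98.9 kb, and 8 genes were called lower once the trend on span was taken off. Carm1, which methylates histones and coactivators, fell from 40.5 ± 0.0331 to 17.6 ± 0.453 FPKM (log2 fold change -1.16, limma adjusted p = 1.87e-09). Nipbl, the cohesin loader that binds Mediator, fell from 24.7 ± 1.18 to 10.8 ± 0.46 FPKM (-1.12, 1.8e-08). Its partner Mau2 rose from 13.5 ± 0.29 to 17.6 ± 0.294 FPKM (0.35, 1.47e-05), and so did the cohesin gene Smc1a (44.5 ± 0.62 to 52.3 ± 1.9 FPKM, 0.23, 0.000143). Smc1a stood at -0.01 (adjusted p = 0.735) after quantile normalization and was the one of these 4 genes to change sign there.

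A list of 18 general initiation factor genes of RNA polymerase II, the machinery that Mediator brings to promoters, had 11 called higher, 3 lower and 4 not called, or 61.1% higher and 16.7% lower against 48.7% and 33.7% of all tested genes, with a median log2 fold change of 0.30. Gtf2f1, a subunit of TFIIF, rose from 63.6 ± 0.321 to 162 ± 1.41 FPKM (1.33, limma adjusted p = 1.96e-10) and Gtf2b, the gene of TFIIB, from 34.8 ± 2.63 to 64.3 ± 1.12 FPKM (0.87, 9.1e-08). The largest falls were those of Gtf2a1, a subunit of TFIIA (4.01 ± 0.456 to 2.85 ± 0.39 FPKM, -0.38, 0.0035), and Mnat1, which assembles the CDK-activating kinase of TFIIH (16.4 ± 0.701 to 12.8 ± 0.482 FPKM, -0.33, 9.74e-05). With the trend on span taken off, 10 genes of the list were called higher and 4 lower, and Mnat1 was called higher (0.11, limma adjusted p = 0.042).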

How the data were processed

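The authors deposited 1 table of FPKM per gene, replicates not pooled. Tools named in the submitters' processing notes are fastp and HTSeq, with the build GRCm39. The aligner, annotation release, strand setting and versions are not named in the sources used here. A further 8 columns of values match no sample of the series and were left aside. From the steps between values, the reads behind each FPKM were recovered (a divisor shared by a gene's 6 values cannot be seen) as whole numbers within 0.001 reads for all 10552 tested genes. Replicates of a group differed by more than counting noise (chi-square per gene 4.71 to 5.54). Genes averaging at least 1 FPKM entered limma 3.58.1 under R 4.3.3 (eBayes with trend, no covariates, two-sided) on log2(FPKM + 1), which understates changes of low genes, and a call needed an adjusted p (Benjamini-Hochberg) under 0.05. Folds are ratios of mean FPKM. The script was tested on simulated data in which few genes changed, unlike here, so that test does not bear on the calls. Members and lists were chosen with earlier results of these data known. Per-library values are given for the 6 largest called rises and falls, the kinase module, Med14, Med1, Med17 and Med26, and from the other lists the 2 largest called changes each way are named. Spans were matched by Entrez identifier or symbol for 10535 tested genes (99.8%) and all 33 members. The span trend was a lowess fit (fraction 0.3). Alternatives were a pseudocount of 0.1, no filter or a filter at 5 FPKM, median-ratio, TMM (unweighted) and quantile scaling, a replicate block, a robust prior, each library left out, BRQ replicate 1 alone, limma-voom on recovered reads and the span trend.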

Additional observations from a re-analysis of the deposited data

How the results depend on the processing

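Of the 32 members tested, all kept direction and call under a pseudocount of 0.1, a robust prior, limma-voom on recovered reads and the replicate block. Same-numbered libraries of the groups did not deviate together (correlations 0.004, -0.032 and -0.034). With so few libraries these correlations cannot settle whether same-numbered libraries were handled together, and the labels do not say. With the replicate block 20 members were called higher and 10 lower, 2 and 14 partner genes, and 11 and 3 initiation genes. Under median-ratio, TMM and quantile scaling 17 members were called higher and 10 lower. Med8 turned to -0.012, -0.018 and -0.048 and Med11 to -0.090, -0.095 and -0.047 there. With the span trend removed, Cdk19 (0.10), Med15 (0.0071), Med31 (-0.042), Med7 (-0.24), Med8 (-0.32) and Med11 (-0.50) changed sign, and the calls of Med6, Med25 and Med28 were lost. Without a filter on low values Med12l entered and was called lower, which gave 19 members higher and 11 lower. Leaving out each library gave Med11 values of -0.082 to 0.15 and 19 to 20 members higher and 10 lower. Partner genes called higher numbered 1 after quantile normalization, and those called lower 9 with a filter at 5 FPKM, which tests fewer genes, and 8 with the span trend removed. Among initiation genes, with the span trend removed, Mnat1 turned to 0.11, Gtf2a2 to -0.31 (limma adjusted p = 0.00052) and Ercc2 to -0.066 (0.311). Under median-ratio, TMM and quantile scaling Tbp was called lower (limma adjusted p = 0.00206, 0.00158 and 0.00102). Gtf2h1 lost its call under these scalings (0.635, 0.741 and 0.201), as did Ercc2 after quantile normalization (0.0504). The thinnest coverage among members was that of Med12l, with 9 to 27 recovered reads per library, and of Med11, with 151 to 238.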

Other observations

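Exons of other genes overlap those of several members in GENCODE M21 on GRCm38, and without a known strand setting the reads there may be shared or dropped. Shares are of all annotated exons of a gene in that release. How much of an overlap lies in the gene models that were counted is not known. Med19 overlaps Zdhhc5 on the opposite strand over 246 bases, 11.95% of its exonic length, and Zdhhc5 measured 27.9 FPKM under DMSO and 27.8 under BRQ on average. Med21 overlaps Tm7sf3 over 197 bases, and Tm7sf3 was called lower (log2 fold change -0.13, limma). Ccnc overlaps Tstd3 over 276 bases, and Tstd3 was called higher (0.41). On the opposite strand, the non-coding gene 2310031A07Rik covers 21.2% of the exonic bases of Med7, and the antisense gene Gm17435 covers 12.7% of those of Med26. In Med20 a processed pseudogene of Kpna2 on the opposite strand covers 21.4% of the exonic bases, and in Med31 a non-coding transcript, 4930563E22Rik, covers 26.3% and averaged 0.213 FPKM under DMSO and 0.299 under BRQ.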
